A study of Mus musculus with 2 samples.

Results

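Dense runs of DNase I hypersensitive sites (DHS) are stretches of chromosome where at least 10 called sites lie close to each other. They were selected on the positions of the peaks in the deposited list: the peaks of chromosomes 1 to 19 were sorted by start, neighbours with a gap under 10 kb were joined, and joined runs with at least 10 peaks were kept. The rule found 312 dense runs, which held 4113 of the 46610 peaks of these chromosomes (8.82%) and of 47542 peaks in the whole list. The other peaks fell into 10222 runs of 2 to 9 peaks (32595 peaks) and 9902 single peaks. The number of peaks, the span and the spacing of the runs are what the rule used, and they are given as a description.

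The series mapped open chromatin in splenic B cells of C57/Bl6 mice, 8 weeks old, of genotype Trp53+/+ and mock treated, so that the cells carried intact p53 and received no irradiation. B cells were enriched with B220 MicroBeads, dying cells were taken out on a Ficoll gradient, and nuclei were digested with DNase I before sequencing. The series holds 1 DNase I library and 1 input library, of which only the first has a peak list, so there was no replicate and no test between conditions. Intervals are at the 95% level and cover counting error only, the peaks of 1 run share their region and are not independent, and the read depth is unknown. The B cell markers Cd79a, Cd79b, Ms4a1, Pax5, Cd22, Ptprc and Ebf1 each had a promoter peak. Promoter peaks were also found at 2 of 7 T cell markers (Cd5 and Cd2, while Cd3e, Cd3d, Cd3g, Cd4 and Cd8a had none), 2 of 5 myeloid, 2 of 4 erythroid, 1 of 2 NK cell and 3 of 3 plasma cell markers.

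DNase I cuts DNA where nucleosomes are displaced, and such sites mark promoters, enhancers, insulators and other elements bound by transcription factors. Many hypersensitive sites packed around a gene are a known feature of genes that define a cell type, where several enhancers act on the same promoter, and of gene clusters whose promoters lie side by side. In mature B cells such genes encode lineage transcription factors, components of B cell receptor signalling, MHC class II molecules and homing receptors.

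The central 300 bases of the highest-scoring peak in 4 of the 5 runs with the most peaks, and of a distal peak in a run with no gene, are shown because these peaks anchor the runs described here. They were read on the plus strand of mm9. Capitals mark the words searched for in all peaks, on both strands: GAGGAAGT (PU.1), AGGGGGC (CTCF), ATGCAAAT (Oct factors), TGTGGTTT (Runx factors) and the palindrome CAGCTG (E2A). The words do not overlap each other in these windows.
Sfi1 run, chr11:3023349-3023648: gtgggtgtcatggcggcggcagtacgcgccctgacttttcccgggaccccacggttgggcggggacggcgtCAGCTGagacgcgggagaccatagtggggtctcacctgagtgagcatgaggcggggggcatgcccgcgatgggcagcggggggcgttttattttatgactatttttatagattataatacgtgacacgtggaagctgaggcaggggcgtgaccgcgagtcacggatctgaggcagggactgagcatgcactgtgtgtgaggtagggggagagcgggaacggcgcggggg
Gimap run, chr6:48696584-48696883: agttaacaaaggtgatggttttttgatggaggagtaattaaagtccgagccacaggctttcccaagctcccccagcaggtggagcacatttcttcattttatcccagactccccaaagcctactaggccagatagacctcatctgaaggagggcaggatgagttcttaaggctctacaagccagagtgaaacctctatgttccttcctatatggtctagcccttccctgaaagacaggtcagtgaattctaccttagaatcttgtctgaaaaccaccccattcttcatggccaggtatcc
Ets1 run, chr9:32503999-32504298: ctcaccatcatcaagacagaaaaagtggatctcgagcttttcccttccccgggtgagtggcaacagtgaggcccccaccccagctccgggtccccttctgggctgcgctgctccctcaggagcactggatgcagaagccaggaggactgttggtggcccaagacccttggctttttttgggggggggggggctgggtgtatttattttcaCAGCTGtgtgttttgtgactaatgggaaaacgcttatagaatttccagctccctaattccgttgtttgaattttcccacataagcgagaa
class II H2 run, chr17:34443810-34444109: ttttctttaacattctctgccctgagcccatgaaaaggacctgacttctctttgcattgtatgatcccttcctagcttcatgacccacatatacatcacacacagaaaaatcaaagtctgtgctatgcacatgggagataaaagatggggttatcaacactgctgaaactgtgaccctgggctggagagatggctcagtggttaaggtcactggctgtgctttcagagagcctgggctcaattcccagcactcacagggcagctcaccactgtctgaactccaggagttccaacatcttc
run near Ier5, chr1:156897828-156898127: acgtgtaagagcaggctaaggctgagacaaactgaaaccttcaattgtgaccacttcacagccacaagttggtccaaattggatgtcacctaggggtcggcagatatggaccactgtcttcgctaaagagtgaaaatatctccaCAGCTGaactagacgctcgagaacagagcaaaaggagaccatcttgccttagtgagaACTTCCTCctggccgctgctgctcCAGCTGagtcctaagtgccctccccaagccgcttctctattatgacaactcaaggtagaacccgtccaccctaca
The peaks of the Gimap and class II H2 runs held none of the words. Those of the Sfi1 and Ets1 runs held 1 CAGCTG each. The intergenic peak near Ier5, with a score of 153.28, held 3 words, a PU.1 word read on the minus strand between 2 CAGCTG words. It was the highest-scoring distal peak with a PU.1 word among the runs named here and was chosen after its values were seen. The Sfi1 peak was the richest in CpG, with 26 CG dinucleotides and 62.7% GC, against 0 CG dinucleotides in the class II H2 peak and 1 in the Gimap peak.

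Runs became rarer with more peaks, though not at every step: there were 203 runs of 8 peaks, 136 of 9, 73 of 10, 55 of 11 and 58 of 12. The 73 runs of exactly 10 peaks, just inside the threshold, had a median span of 33979 bp, a promoter share of 44.7% and a median score of 36.3. The 136 runs of 9 peaks, just outside it, had a median span of 29036 bp, a promoter share of 44.4% and a median score of 33.01. The largest run held 38 peaks, and 11 runs held 23 or more.

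**Figure D1:**
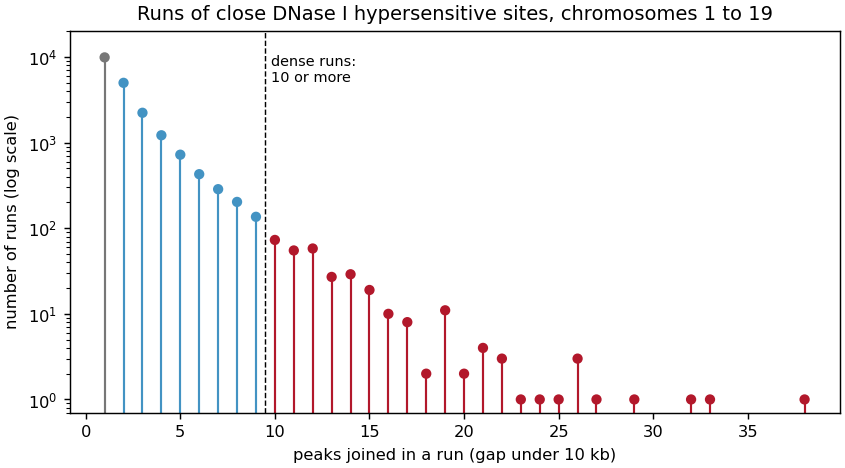
Number of runs (log scale) against the number of peaks joined in a run, for chromosomes 1 to 19, with single peaks in grey, runs of 2 to 9 in blue and dense runs in red. The counts fall across the dashed threshold from 136 runs of 9 peaks to 73 runs of 10, vary from step to step among the larger runs, and end at 1 run of 38 peaks.

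Dense runs spanned 41178 bp at the median (39918 to 43032), with quartiles of 34084 and 51978 bp and a range of 18386 to 129707 bp. Runs of 2 to 9 peaks spanned 6571 bp (6395 to 6756). Together the dense runs covered 14.1 Mb, or 0.572% of the autosomes. Their peaks were set 1566 bp apart at the median, against 1304 bp within runs of 2 to 9 peaks. Peaks filled 29.1% of a dense run at the median and 40.9% of a smaller run. The density of dense runs ranged from 1.67 to 6.05 peaks per 10 kb. The median peak was 817 bp wide (789 to 842) in dense runs and 719 bp (710 to 727) in runs of 2 to 9. Single peaks were wider than both, 880 bp (864 to 898).

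Promoter peaks, those that overlapped a window reaching 5 kb upstream and 2 kb downstream of an annotated transcription start site (TSS), made up 44.3% of the peaks in dense runs (42.8 to 45.8, Wilson interval; 1822 of 4113). In runs of 2 to 9 peaks the share was 48.7% (48.2 to 49.3) and among single peaks 42.9% (41.9 to 43.9). The difference between dense and smaller runs was −4.44 percentage points (Newcombe interval −6.05 to −2.82). The direction of this difference depended on how runs were built: it was 0.63 points (−2.68 to 3.95) with a gap under 5 kb, and 5.21 points (−0.65 to 10.5) when weaker peaks, those scoring under the median of the list, were left out. Promoter windows themselves covered 38.2% of the span of dense runs and 44.3% of that of smaller runs. Within dense runs, 33.7 promoter peaks were counted per 100 kb of promoter window and 26.2 distal peaks per 100 kb of the remaining span, and the corresponding densities in smaller runs were 41.1 and 34.4. Among the distal peaks of dense runs, intergenic peaks accounted for 27.5% of all peaks, intronic ones for 22.3% and exonic ones for 5.96%.

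The promoter share did not follow the size of the run in 1 direction. It was 50.9% in pairs of peaks and fell to 43.8% (42.4 to 45.2) in runs of 7 to 9 peaks. Among dense runs it was 46.8% (44.7 to 49.0) at 10 to 12 peaks, 40.5% at 13 to 16, 36.4% (32.6 to 40.5) at 17 to 22, and 57.0% (51.4 to 62.4) in the 11 runs of 23 or more. The last group held several gene clusters described further on, and the 33 promoter peaks of the Sfi1 run alone.

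Dense runs were also grouped by the number of protein-coding gene identifiers with a TSS in them. Genes with 2 identifiers, such as Ciita and Gsx2, counted as 2. In the 45 dense runs that held no protein-coding TSS, 9.76% of the peaks were promoter peaks, at TSSs of other transcripts or of genes just outside the run. In the 130 runs with 1 protein-coding gene the share was 33.3% (31.1 to 35.6), in the 101 runs with 2 to 4 genes 56.8% and in the 36 runs with 5 or more genes 82.7% (79.4 to 85.6). Since promoter windows are set by the annotation, a rise with the number of TSSs is built into this measure. The median peak score was 24.2 in runs without a TSS, 30.6 with 1 gene, 36.3 with 2 to 4 and 52.4 with 5 or more. Promoter peaks had medians of 25.3, 40.4, 41.5 and 58.6 in the same order, and distal peaks 24.1, 26.8, 30.2 and 25.8, so that the distal median did not keep rising while that of promoter peaks did. The runs had a median of 12 peaks in the first 3 groups and 13 in the last. The highest-scoring peak was a promoter peak in 201 of 312 dense runs (64.4%). It was so in 3 of 45 runs without a protein-coding TSS, 83 of 130 with 1 gene, 81 of 101 with 2 to 4 and 34 of 36 with 5 or more. At the extremes, 29 dense runs had no promoter peak and 15 had nothing else.

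**Figure D2:**
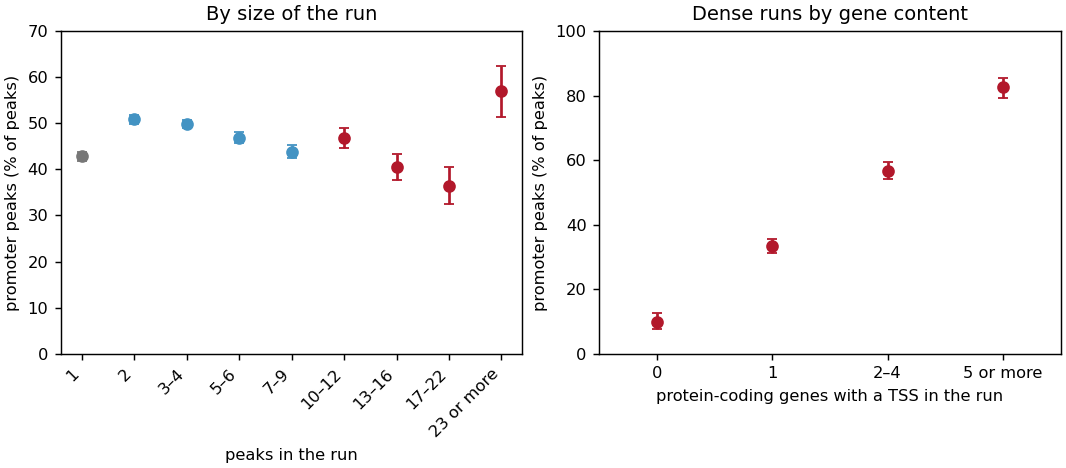
Promoter peaks as a percentage of all peaks, by the number of peaks in the run (left). Single peaks are grey, runs of 2 to 9 blue and dense runs red. Dense runs are also grouped by the number of protein-coding gene identifiers with a TSS in the run (right). Bars are 95% Wilson intervals. Over the size groups drawn the share lies between 36.4% and 57.0%, and over the gene content groups, where a rise is built in because each TSS brings its own window, between 9.76% and 82.7%.

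The score is the value the peak caller gave to each peak, on a scale not stated in the sources used here, and it ran from 5.05 to 619.44 over the list. Its median was 33.1 (31.8 to 34.5) in dense runs and 32.5 (31.99 to 32.95) in runs of 2 to 9 peaks, a difference of 0.61 (−1.19 to 2.54) that did not exceed its interval. Promoter and distal peaks differed in opposite directions. The median of promoter peaks was 44.5 in dense runs, 50.6 in smaller runs and 76.3 among single peaks. In pairs of peaks it was already 57.3. Every peak that touches a promoter window is counted, so a window with several peaks adds each of them. The median of distal peaks was 26.7 in dense runs, 24.4 in smaller runs and 23.8 among single peaks. The median width of distal peaks was 723 bp in dense runs, 573 bp in smaller runs and 673 bp among single peaks.

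Dense runs held the TSS of 620 protein-coding gene symbols (625 annotated gene identifiers), which is 2.91% of the 21281 symbols on chromosomes 1 to 19. Of the 12352 symbols that had any promoter peak, 618 lay in dense runs, or 5.0%, and these background shares are the ones to set beside the gene lists. Genes per Mb of span numbered 44.2 (40.8 to 47.8, exact Poisson interval), against 85.0 (83.1 to 87.0) in smaller runs and 347.6 at single peaks. Spans start and end at peaks, so short runs over a TSS get high densities by construction. The dense runs held 2.91% of the symbols in 0.572% of the autosomes, so they were not poor in genes. The density in dense runs was 79.6 per Mb (63.7 to 98.3) in the 21 runs built without peaks under the median score, and smaller runs were not recounted under that setting. The genes themselves were of 10312 bp at the median, shorter than the 21363 bp of genes in runs of 2 to 9 peaks and the 25192 bp of genes at single peaks. A peak lay directly over the TSS of 83.5% of them, against 86.0% in smaller runs.

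With the reported gap and weak peaks kept, genes of B cell identity had their TSS in dense runs more often than the background share. Of 26 B cell transcription factors, 10 did (38.5%, exact binomial interval 20.2 to 59.4), in 10 different runs, and all 26 had a promoter peak. The runs of Id3, Spib, Ikzf3, Spi1 and Bach2 also held the TSS of other protein-coding genes, and their peaks are counted per run. Ets1, an Ets family factor of lymphocytes, led with 29 peaks. Id3, an inhibitor of E proteins, followed with 20 and Irf8, an interferon regulatory factor, with 17. The zinc finger factors Ikzf3 (Aiolos) and Ikzf1 (Ikaros) had 15 and 13 peaks, and the Ets factors Spib and Spi1 (PU.1, annotated as Sfpi1) 13 and 10. The forkhead factor Foxp1 had 14. Bach2, a repressor that holds back plasma cell differentiation, and Irf4, which promotes it, had 12 each. The factors that fix B cell commitment were not among them: Pax5 lay in a run of 5 peaks and Ebf1 in a run of 6, and 15 of the 26 were in runs of 2 to 9 peaks and 1, Cux1, at a single peak.

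The scores and layout of these runs varied. The median scores of the Id3 and Spib runs were 37.1 and 72.8, and their highest-scoring peaks (398.66 and 393.71) lay away from Id3 and Spib, at promoter windows of other transcripts in the shared runs. In the Irf8 run the median was 18.5, the top peak (186.19) was intronic, and 9 of the 17 peaks lay downstream of the gene, 6 in it and 2 upstream. In the Irf4 run 5 of 12 peaks were upstream, 5 in the gene and 2 downstream. At Foxp1, a gene of 341195 bp, 8 of 14 peaks were in the gene body and 6 upstream. Ikzf1 had a second dense run: 16 peaks without a single promoter peak, 14 of them intronic and 2 just past the end of the gene, starting 18621 bp beyond the end of the run over its TSS, with a median score of 19.6.

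B cell receptor components, co-receptors and signalling molecules were found in dense runs at 12 of 29 placed genes (41.4%, 23.5 to 61.1), in 12 different runs. The signalling adaptors Pik3ap1 (BCAP) and Blnk had 21 and 19 peaks, and the kinases Syk (annotated as Sykb) and Blk 18 and 11. Cd79b, the signalling chain of the receptor, had 14, of which 9 were upstream of the gene, 1 in its 3422 bp and 4 downstream. The inhibitory side was represented by Cd72 with 19 peaks, Ptpn6 (SHP-1) with 13, Cd22 with 12, Inpp5d (SHIP-1) with 11 and Fcgr2b, the inhibitory Fc receptor, with 10. The runs of Cd72 (7 genes), Ptpn6 (8 genes), Cd22, Blnk, Blk and Cd37 were shared with other genes, so their peaks are those of the run. Ptprc, the phosphatase CD45, had 14 and the tetraspanin Cd37 12. All 11 peaks of the Inpp5d run and 20 of the 21 of the Pik3ap1 run lay in the gene body, and only 1 and 2 of them were promoter peaks. The highest-scoring peak was intergenic in the Blnk run (332.65) and the Syk run (306.69), and at a promoter in the Ptprc run (168.39). Repeated 31-base words, counted because reads can be placed less surely there, made up 13.3% of the Fcgr2b run and between 2.94% and 7.71% of the other 11. Cd79a, in a run of 9 peaks, fell just short of the threshold.

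Genes of antigen presentation were in dense runs at 14 of 19 (73.7%, 48.8 to 90.9), but these came from only 3 runs. H2-Aa, H2-Ab1, H2-Eb1, H2-Eb2 and H2-Ob, which encode chains of class II molecules, shared a run of 27 peaks at chr17:34371629-34467308. H2-DMa, H2-DMb1 and H2-DMb2, whose products load peptide onto class II molecules, shared a run of 22 peaks with the transporter and immunoproteasome genes of the region. The 2 runs were 28061 bp apart. Ciita, the transcriptional coactivator of class II genes, had 16 peaks of its own. The class II chaperone Cd74 lay in a run of 4 peaks and the class I genes H2-K1 and H2-D1 in runs of 9 and 5.

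Receptors that guide B cells through lymphoid tissue were in dense runs at 7 of 16 placed genes (43.8%, 19.8 to 70.1), in 7 runs. Gpr183 (EBI2) had 22 peaks, the chemokine receptors Ccr7, Cxcr5, Cxcr4 and Ccr6 had 21, 19, 16 and 13, the cannabinoid receptor Cnr2 had 16 and the sphingosine phosphate receptor S1pr1 had 13. The runs of Gpr183, Cxcr5 and Cnr2 each held another gene, and the peaks of the other 4 could be placed against a single gene. At Cxcr4 13 of 16 peaks were upstream, 1 in the gene of 4095 bp and 2 downstream, and the top peak, with a score of 234.93, was intergenic. At S1pr1 none was upstream, 1 was in the gene and 12 were downstream. At Ccr7 10 were upstream, 5 in the gene and 6 downstream. At Ccr6, a gene of 20916 bp, 6 were upstream and 7 in the gene. The adhesion molecules of the list were not in dense runs: Itgb2 lay in a run of 8 peaks and Itgb1 and Cd44 at single peaks.

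In the NF-κB and TNF receptor families 8 of 21 genes (38.1%, 18.1 to 61.6) lay in 6 dense runs. Tnf, Lta and Ltb, neighbouring cytokine genes, shared 17 peaks, of which 16 were promoter peaks. The NF-κB subunit gene Nfkb2, the inhibitor Nfkbie and the adaptor Traf1 had 12 each, and the co-activator Bcl3 and the BAFF receptor gene Tnfrsf13c 10 each, and apart from that of Traf1 these runs were shared with other genes. Immediate early and quiescence genes were in dense runs at 6 of 22 (27.3%, 10.7 to 50.2): Junb, an AP-1 subunit, with 19 peaks, the antiproliferative genes Btg2 and Btg1 with 15 and 12, the nuclear receptor Nr4a1 and the phosphatase Dusp2 with 12 each, and Fosb, another AP-1 subunit, with 11. The Junb run held 6 genes and the Dusp2 and Fosb runs 2 each. At Nr4a1 11 of 12 peaks were upstream of the gene and the last was in it. Of 8 Gimap genes, GTPases of lymphocytes, 6 shared 1 run of 32 peaks.

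The remaining lists had 2 members or fewer in dense runs, with intervals that held the background shares. Cytokine receptors, JAK kinases and STAT factors had 1 of 23 (4.35%, 0.11 to 21.9), the receptor Il21r with 13 peaks, although each of the 23 had a promoter peak. The p53 targets had 1 of 15 (6.67%, 0.169 to 31.9), Gdf15 with 10 peaks. T cell genes had 1 of 18, the adhesion receptor Cd2 with 13 peaks. Genes of myeloid, NK and erythroid cells and genes of other tissues had 0 of 17 each, which allows a share of up to 19.5%. Cytoplasmic ribosomal proteins had 2 of 30 (6.67%, 0.818 to 22.1), among them Rps15 with 14 peaks, and all 30 had a promoter peak. Housekeeping enzymes and cytoskeletal genes had 2 of 18 (11.1%, 1.38 to 34.7), among them Eef2 with 10 peaks, in a run with 11.5% repeated words.

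**Figure D3:**
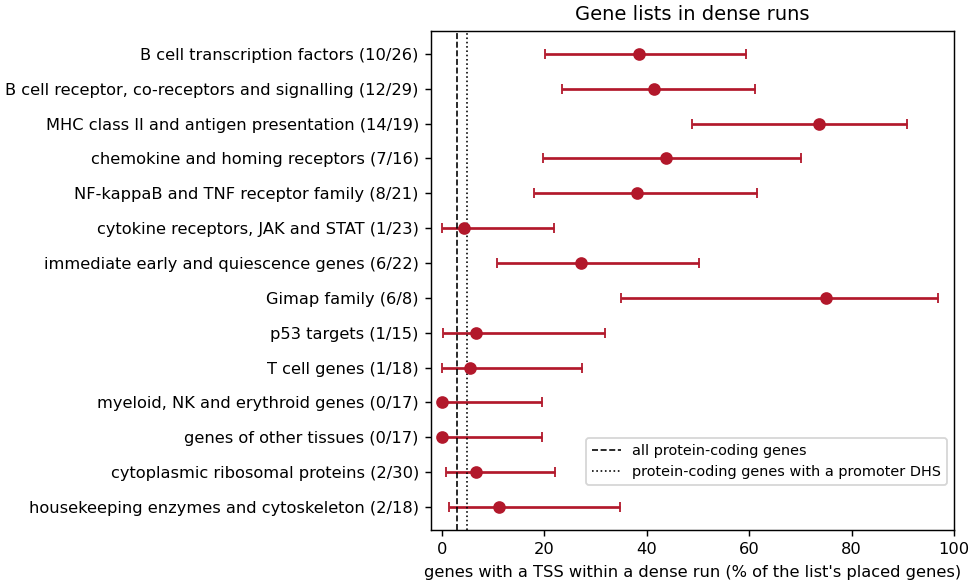
Share of each gene list's placed genes whose TSS lies in a dense run, in percent, with exact 95% binomial intervals and the counts in brackets; the dashed line is the share of all protein-coding genes (2.91%) and the dotted line that of genes with a promoter peak (5.0%). The transcription factor, receptor signalling, antigen presentation, homing, NF-κB, immediate early and Gimap lists lie to the right of both lines with their intervals, and the other 7 lists have intervals that reach them. Genes of 1 run are counted as if independent. The intervals of the Gimap list (1 run), the antigen presentation list (3 runs) and the NF-κB list (8 genes in 6 runs) are therefore too narrow.

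These shares depended on weak peaks and on the gap, and more so for some lists than for others. With a gap under 5 kb none of the 26 transcription factors and none of the 29 receptor signalling genes lay in a dense run, when 0.54% of all genes did. With joining limited to peaks that scored at least the median of the list, 0 of the 26 and 1 of the 29 did, against a background of 0.404%, and the antigen presentation list had 0 of 19, and 2 of 19 with the narrower gap. The homing receptors had 3 of 16 (18.8%) with the narrower gap and 1 of 16 under the score limit, the NF-κB and TNF receptor families 3 of 21 (14.3%) under both, the immediate early and quiescence genes 2 of 22 and 1 of 22, and the Gimap family 5 of 8 and 0 of 8. With peaks closer than 500 bp merged first, 5 of 26 transcription factors (19.2%) and 6 of 29 receptor signalling genes (20.7%) did, against 1.35%, and the antigen presentation list had 14 of 19. Among runs of at least 15 peaks the counts were 4 of 26 and 4 of 29, against 0.804%. Antigen presentation had 14 of 19, homing receptors 5 of 16, immediate early and quiescence genes 2 of 22 and Gimap 6 of 8. The NF-κB and TNF receptor families had 3 of 21, which were Tnf, Lta and Ltb of 1 shared run. With a gap under 20 kb, 17 of 26 transcription factors and 22 of 29 receptor signalling genes did, against 12.99%. Lists near the background under the reported rule then also lay above it. Cytokine receptors, JAK kinases and STAT factors had 12 of 23 (52.2%), housekeeping genes 8 of 18 (44.4%) and ribosomal proteins 12 of 30. Myeloid, NK and erythroid genes had 5 of 17 (29.4%), p53 targets 4 of 15 (26.7%) and T cell genes 3 of 18 (16.7%). Genes of other tissues, at 1 of 17 (5.88%), lay below it.

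The Ets1 run, chr9:32443756-32556447, was the largest of the runs with 1 gene. Its 29 peaks over 112692 bp all lay within the gene of 121600 bp. The highest, with a score of 170.63, lay 522 bp into the gene from an internal TSS and is the one printed above, and the peak 124 bp from the upstream TSS scored 11.42. The other 27 were intronic, with scores from 7.61 to 100.96, the strongest of them 15380 bp from the upstream TSS. Only those 2 peaks counted as promoter peaks (6.90%). Tspan14, a tetraspanin gene, showed the same kind of layout, with 20 of 24 peaks in the gene, 4 upstream and 2 promoter peaks with scores up to 201.65.

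The class II run held 18 promoter peaks of 27. Distances here are from a peak's centre to the nearest annotated TSS of any transcript of the gene. The printed peak, 1073 bp downstream of such a TSS of H2-Eb1, had the highest score, 356.19. The peak 564 bp downstream of a TSS of H2-Aa scored 291.49, that 1274 bp upstream of H2-Ab1 233.34 and that in H2-Ob 184.94, while the peak 453 bp downstream of a TSS of H2-Eb2 scored 64.50. The widest peak of any dense run, 7995 bp with a score of 243.32, was also here, centred 8555 bp upstream of H2-Aa. Each of the 5 genes therefore had a peak near its start, but H2-Eb2 had the lowest.

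The Gimap run, chr6:48614493-48698381, held 19 promoter peaks of 32. The highest score was at Gimap5 (195.50, the printed sequence), and peaks at Gimap6 and Gimap9 scored 175.47 and 96.70. The peak nearest the Gimap4 TSS scored 14.30. Further peaks included an exonic one of 105.10 at Gimap6, and the median score of the run was 29.1.

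The replication-dependent histone run, chr13:23592556-23678900, had the highest median score of the 10 runs with the most peaks, 105.7 over 26 peaks. It held 15 protein-coding gene identifiers from Hist1h4h to Hist1h4d. Its top peak, at the TSS of Hist1h4h, scored 400.26, and 2 intergenic peaks 13331 and 11445 bp upstream of that gene scored 266.63 and 254.56. Histone genes are near copies of each other, and repeated words made up 12.3% of this run. A run on chromosome 11, with Per1, a circadian clock gene, and Vamp2 among 7 genes, had the highest median score of all dense runs, 135.5 over 18 peaks.

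**Figure D4:**
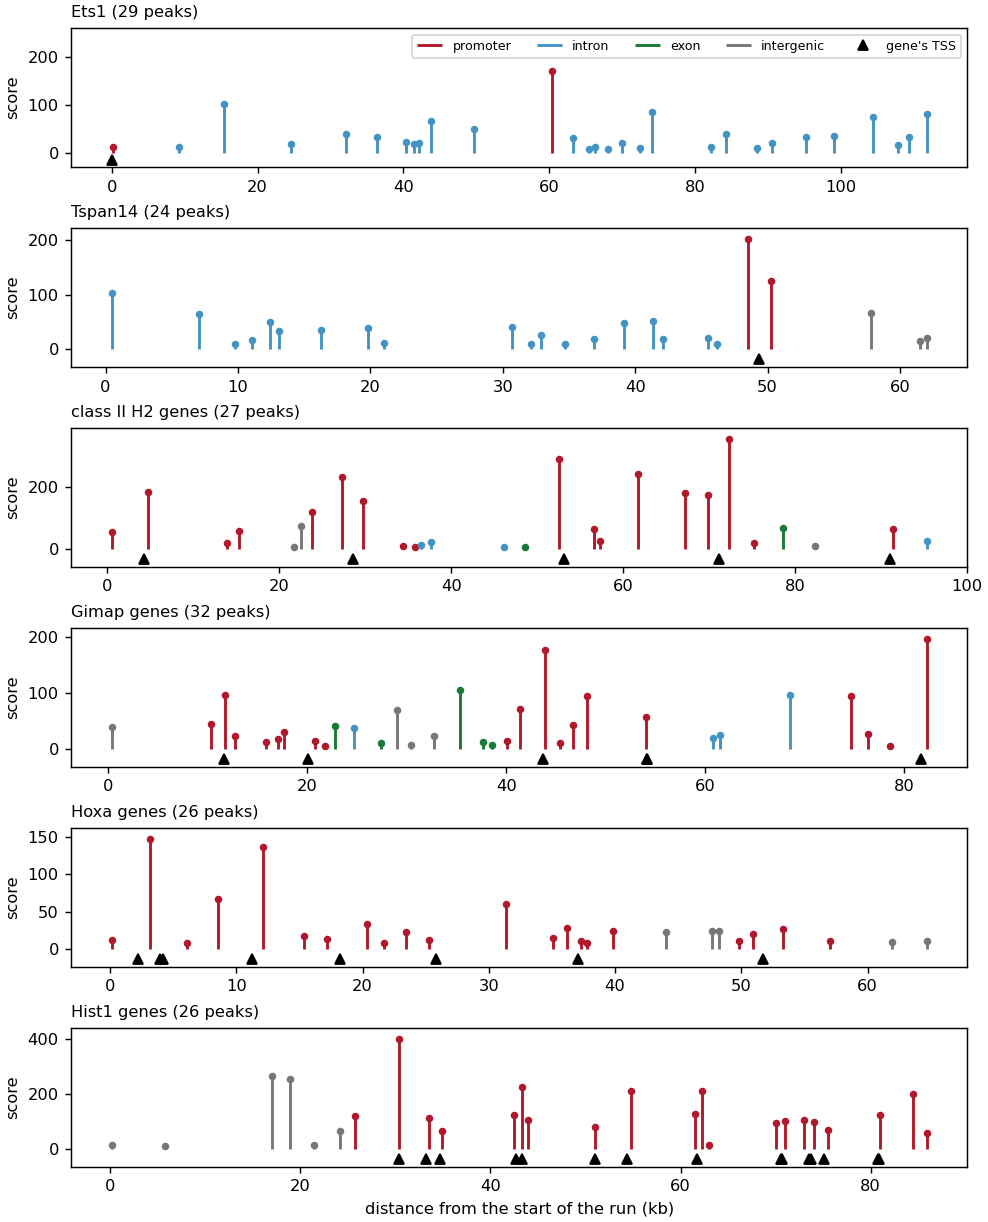
Peaks of 6 dense runs, each drawn at its centre (distance from the start of the run, kb) with its score as height, coloured by place; black triangles mark the first listed TSS of each protein-coding gene. Ets1 and Tspan14 show mostly intronic peaks around 1 strong promoter peak or pair, the class II H2, Gimap and Hist1 runs show strong peaks at several TSSs, and the Hoxa run shows mostly weak promoter peaks.

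The 130 runs with 1 protein-coding gene identifier, without those of Ciita and Gsx2 that have 2, held 1705 peaks. Of these peaks, 56.6% lay within the gene body (54.2 to 58.9), 30.6% upstream of it and 12.8% downstream. The genes differed widely. All peaks lay within the gene at Mtss1 (17 peaks), Aff1, Sema4d and Sgms1 (16 each), as at Ets1. Outside the gene lay 15 of 25 peaks at Sema4b, all upstream, 14 of 20 at Exoc6, 11 of 19 downstream of Lbh and 10 of 15 downstream of Nkx2-3, a homeobox gene of 3567 bp required for spleen development. Cyth1 had 23 of 26 peaks in its body.

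Of the 45 dense runs without a protein-coding TSS, 15 overlapped the body of a protein-coding gene and 30 overlapped none. They lay 26283 bp from the nearest protein-coding TSS at the median and 309560 bp at most. The largest had 19 peaks with scores of 7.53 to 220.28 and lay 45689 bp from the TSS of Klf13, a Krüppel-like factor. Runs of 17 peaks each lay 63373 bp from Tomm20 and 12717 bp from 6330403A02Rik. The run of 15 peaks that holds the printed peak with a PU.1 word lay 28277 bp from Ier5, an immediate early response gene, and its median score of 46.1 was above the 24.2 of peaks in runs without a TSS. Which genes these runs act on was not measured. There were 44 dense runs within 100 kb of another dense run, among them a run of 21 peaks at Cxxc5 and its neighbour 10785 bp away, which held no TSS and had a median score of 113.7.

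Some dense runs lay over homeobox genes of developmental patterning. The Hoxa run, chr6:52159118-52224035, had 26 peaks, 21 of them promoter peaks, from Hoxa3 to Hoxa13, genes of body axis patterning. Its top peaks were one that spanned TSSs of Hoxa6 and Hoxa3 (147.41) and one at Hoxa7 (136.30), but its median score of 18.4 was the lowest among the 10 runs with the most peaks. Dlx1 and Dlx2, homeobox genes of the forebrain, shared 12 peaks with a median of 19.4 and none above 45.97. Gsx2, another forebrain homeobox gene, had 11 peaks with a median of 14.2, where the top score of 112.77 belonged to an intergenic peak 8029 bp upstream. Cbx8, which encodes a Polycomb subunit and is no homeobox gene, had 14 peaks with a median of 24.6. These 3 small runs were among the 5 densest, with 5.66, 5.81 and 5.35 peaks per 10 kb, after Stk17b, a kinase gene with 6.05. The remaining member of those 5 was a run of 10 peaks without a TSS on chromosome 19 with 5.44. The Hoxa, Dlx and Cbx8 runs had observed to expected CpG ratios of 0.514 to 0.539, and the Gsx2 run 0.361, against a median of 0.237 for peaks in dense runs.

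**Figure D5:**
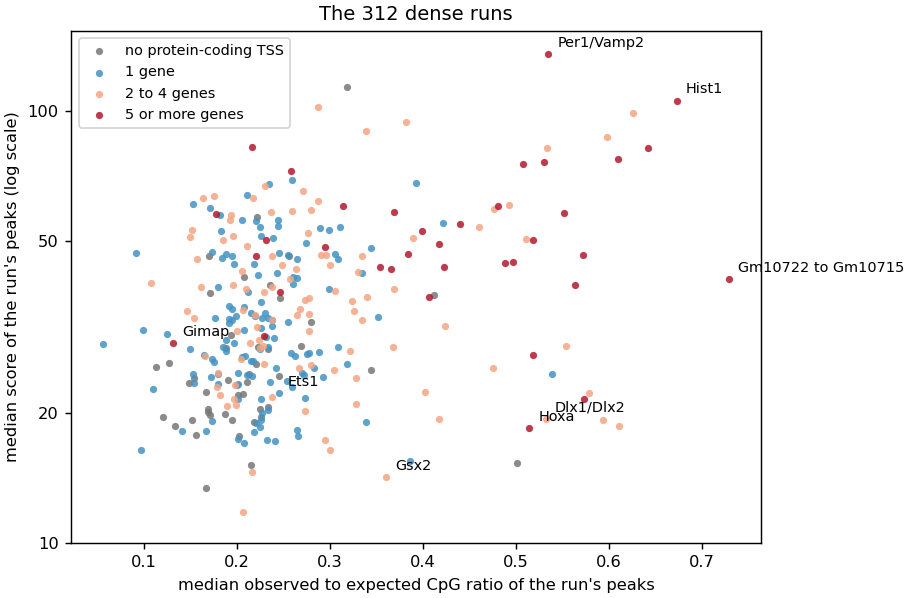
Each point is a dense run, placed by the median observed to expected CpG ratio of its peaks and by their median score (log scale). Colours give the number of protein-coding gene identifiers with a TSS in the run. Runs at high CpG ratios range from weak, such as Hoxa (18.4) and Dlx1/Dlx2 (19.4), to strong, such as Hist1 (105.7) and Per1/Vamp2 (135.5).

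The motif words were counted in the central 300 bases of every peak. Among distal peaks the PU.1 word was present in 5.24% in dense runs (4.40 to 6.23), 4.14% in runs of 2 to 9 peaks (3.84 to 4.45) and 4.21% of all distal peaks. Without the 40 dense runs with more than 10% repeated words it was present in 5.36%. The Oct word was found in 2.40% against 2.07% in smaller runs, the Runx word in 2.79% against 3.51%, the CTCF word in 5.63% against 6.16% and the E2A word in 19.03% against 18.6%. The Wilson intervals of dense and smaller runs overlapped for all 5 words at distal peaks, that of PU.1 by the least. Without the runs rich in repeated words the PU.1 interval in dense runs (4.46 to 6.43) no longer overlapped that of smaller runs, which were not filtered in the same way. At promoter peaks the E2A word was in 20.2% in dense runs (18.4 to 22.1), 15.9% in smaller runs (15.3 to 16.5) and 16.2% of all promoter peaks, and in 20.1% without the runs rich in repeated words. The PU.1, CTCF, Oct and Runx words at promoter peaks had overlapping intervals. A word match is a description of the sequence and no sign that the factor was bound.

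Repeated 31-base words, those occurring more than once in the genome, made up 5.53% of a dense run at the median. They exceeded 10% in 40 runs and 50% in 1, the run at chr9:2999793-3038488 over 12 predicted genes from Gm10722 to Gm10715, where they made up 92.8% and all 16 peaks were promoter peaks with scores of 15.84 to 92.79. The Sfi1 run, chr11:3022703-3103364, with 33 peaks that all counted as promoter peaks, had 19.2%, and its peaks filled 76.8% of its span. How far reads of several copies entered these peaks was not tested. Without the 40 runs the promoter share was 43.7%, the median span 41216 bp and the number of genes 532.

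Dense runs were found on every autosome, from 6.27 per 100 Mb on chromosome 3 (3.005 to 11.5, exact Poisson interval) to 24.6 on chromosome 11 and 29.3 on chromosome 19 (17.4 to 46.4). Chromosomes 11 and 19 also had the most peaks of all kinds, 31.8 and 29.6 per Mb, against 14.2 on chromosome 3. A region outside the dense runs is one where fewer peaks were called in this library, and deeper sequencing could add peaks and join runs.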

How the data were processed

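The peak list came from 1 DNase I library of splenic B cells. The input library has no processed file here. Per the submitters' processing notes, reads were handled with BWA 0.6.2 and SAMtools on mm9. The peak names are those of MACS, and its version and settings for DNase I, and whether the input served as control, are not given in the sources used here, where the methods name a MACS version and cutoff for ChIP-seq only. The deposited score of each peak was used as the authors gave it, on a scale that is not stated, and it was compared only within the list. No read counts were given, so depth is unknown.

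Peaks were joined, annotated and counted with Python 3.11.15, numpy 2.4.6, pandas 2.3.3 and scipy 1.17.1. Sequences and genes came from the mm9 assembly and its GENCODE annotation, after peak positions were checked against chromosome lengths, which 1 peak on chromosome 19 passed. TSSs of all transcripts set the promoter windows and TSSs of protein-coding genes the gene counts. A distal peak was exonic, intronic or intergenic by its overlap with annotated genes. Spi1 and Syk were matched through RefSeq synonyms. Shares have Wilson intervals, lists exact binomial, densities exact Poisson and medians order-statistic intervals. The joining and counting steps were tested on simulated data.

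Named runs were the 10 with the most peaks, the 5 longest, the 5 densest, the 5 with the most protein-coding TSSs, the 5 largest with 1 gene, the 5 with the lowest promoter share and the 5 with the highest median score. Other runs were named through the 14 gene lists, or as examples of position after their values were seen. The members, lists and rules were chosen with earlier results of these data known. A few genes and 1 run are not reported here.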

Additional observations from a re-analysis of the deposited data

Results flagged for a closer look

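The X chromosome and unplaced sequence were outside the comparisons. On X, 1 run reached the size of a dense run: 13 peaks over 38308 bp at chrX:11699731-11738038, over the TSS of Bcor, a corepressor that partners with Bcl6, with a median score of 22.2. On unplaced sequence of chromosome 4 the largest run held 8 peaks. Both are signals in data that the comparisons did not use, and no processed file of the input library was at hand to set them against.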

How the results depend on the processing

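There was 1 library, so no replicate could be left out. No paired analysis was possible because no groups were compared. The definition of a run moved most values. The number of dense runs was 312 as reported, 72 with a gap under 5 kb, 868 under 20 kb, 21 from peaks at or above the median score, 117 with peaks closer than 500 bp merged, 651 with at least 8 peaks and 70 with at least 15. In that order, the median span was 27725, 74562, 52747, 55932, 33064 and 63102 bp, against 41178 bp, and the genes with a TSS in a dense run numbered 115, 2765, 86, 288, 1096 and 171, against 620, or 377 with the whole gene inside. The promoter share of 44.3% became 50.2% with a gap under 5 kb, 69.3% from peaks at or above the median score, 41.5% with merging, 39.8% at 15 or more peaks, 28.4% when the window reached 1 kb either way, 39.7% with protein-coding TSSs only and 41.6% for peak centres. Its difference from the smaller runs, −4.44 points, was −8.71 at 15 or more peaks and −7.76 with the 1 kb window. It reversed to 0.63 with a gap under 5 kb and to 5.21 from peaks at or above the median score, both with intervals that included 0. The score difference of 0.61 reversed to −6.12 (−10.6 to −1.69) among promoter peaks alone. The cause of these changes was not tested. Leaving out the runs rich in repeated words, a setting chosen after seeing the data, kept the promoter difference at −5.04 points. The gene list shares under other definitions that are given beside the lists were also chosen after seeing the data.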
